A study of Mus musculus with 8 samples.

Results

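The genes described here are 40 members of the hypoxia response and glycolysis, chosen by name: 16 enzymes of glycolysis from hexokinase to lactate dehydrogenase, and 24 other hypoxia genes. The latter were 4 subunits of the hypoxia-inducible factors (HIF), 4 genes of oxygen sensing, 2 enzymes that set the level of fructose 2,6-bisphosphate, 3 transporters of glucose and lactate, and 11 further hypoxia-inducible genes. They are 40 of the genes behind 52325 identifiers listed in each library. 39 of them were among the 17177 genes that reached 0.5 TPM in 4 or more of the 8 libraries and were tested. TPM is the abundance of a gene's transcripts, corrected for their length and scaled to the same total in every library, so that levels can be compared between genes. The remaining member, *Hif3a*, reached at most 0.392 TPM in any library. All 39 tested members passed that minimum in at least 7 libraries.

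The libraries hold RNA of costal (rib) chondrocytes from mice 7 d old, 4 of them wild-type (WT) and 4 *Mir140*-null. The null allele was made with CRISPR/Cas9 in embryos of mixed C57BL/6 and CBA/ca origin and backcrossed to C57BL/6J. The number of backcrosses is not given. Heterozygous animals were then crossed to give WT and null lines, so effects of the genotype and of the line cannot be told apart. The null allele is constitutive, so miR-140 is missing in all cells of the animal and throughout development. Chondrocytes were released from the ribs with collagenase.

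Growth cartilage has no blood vessels, and its chondrocytes live at low oxygen. HIF-1α is made continuously and is destroyed when oxygen is present, because prolyl hydroxylases mark it for the VHL ubiquitin ligase. When oxygen is low it pairs with ARNT and switches on genes that carry a hypoxia response element, among them glucose transporters and most enzymes of glycolysis, and chondrocytes that lack it die in the core of the growth plate. Because HIF is controlled mainly through the stability of its protein, transcript levels of its subunits are only one part of its activity, and protein was not measured in these data.

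miR-140 is abundant in cartilage, and its 3p arm occurs with 2 different 5′ ends and therefore 2 seeds. The mature sequence of miR-140-3p.2 is the RefSeq one, at chr8:107551288-107551308 on the plus strand of GRCm38.p6, and miR-140-3p.1 starts 1 base later. They are shown with the seed (bases 2 to 8) in capitals, because the sites below are matches to it.
miR-140-3p.2: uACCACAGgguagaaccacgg
miR-140-3p.1: aCCACAGGguagaaccacgg

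In the lists of predicted targets of the study, which were made from human 3′UTRs, 4 members occur. *Hif1a* is in the list of miR-140-3p.1, *Vegfa* is in the same list and also in that of miR-140-5p, *Egln3* in that of miR-140-3p.2 and *Slc2a1* in that of miR-140-5p. In the mouse, the longest annotated 3′UTR of *Hif1a* (1827 bases) and that of *Vegfa* (1865 bases) each held 1 match to bases 2 to 7 of miR-140-3p.1 followed by an A (a 7a1 site), and no match to the whole seed. The 3′UTR of *Egln3* held 1 match to the whole seed of miR-140-3p.2 (a 7m8 site), directly after the stop codon, and 1 7a1 site. The sites are printed 5′ to 3′ along the transcript with the matching bases in capitals, together with those of 2 enzymes whose transcripts changed, *Ldhb* and *Pfkl*.
*Hif1a*, 7a1 site of miR-140-3p.1, chr12:73946869-73946897 of GRCm38, plus strand: ataaacatcttCTGTGGAccaggccccct
*Vegfa*, 7a1 site of miR-140-3p.1, chr17:46018383-46018411, minus strand: atgtttgactgCTGTGGActtgtgttggg
*Egln3*, 7m8 site of miR-140-3p.2, chr12:54180606-54180623, minus strand: CTGTGGTgtgcaatccgc
*Ldhb*, 7m8 site of miR-140-3p.1, chr6:142490456-142490484, minus strand: agtgcggacacCCTGTGGgacatccagaa
*Pfkl*, first of its 7m8 sites of miR-140-3p.1, chr10:77988009-77988037, minus strand: aggacagagagCCTGTGGggcccctacct

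Matches to the whole seed of miR-140-3p.1 occurred in 11 of the 40 members (27.5%), against 20.2% of the 12988 tested genes with an annotated 3′UTR. For miR-140-3p.2 the numbers were 10 members (25%) and 19.0%. Both member counts include *Hif3a*, which was not tested and held 1 match to each seed, while the shares beside them cover tested genes only. With 7a1 sites included, a site of miR-140-3p.1 was present in 2 of the 5 up-regulated members described below, *Hif1a* and *Ldhb*, in 1 of the 7 down-regulated ones, *Pfkl*, and in 11 of the 27 that did not pass, where 30.3% of all tested genes with a 3′UTR had one. A site of miR-140-3p.2 was present in none of the former and in 3 of the latter, *Ldha*, *Pdk1* and *Pfkfb3*, and in 8 of the 27, against 24.9% of the tested genes. The *Ldhb* site rests on the longest annotated 3′UTR of the gene, and its window also reads in frame as protein sequence (SADTLWDIQ). In other transcripts of *Ldhb* it may therefore be coding sequence, which was not tested. The counts of miR-140-3p.1 sites above include it. A match of this kind is a description of the sequence and does not show that the transcript is bound.

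Of the 39 tested members, 12 (30.8%) differed between the genotypes at an adjusted p under 0.05 (limma on log2(TPM + 1), Benjamini-Hochberg over all 17177 tested genes), where 16.9% of all tested genes did. They comprised 5 up-regulated members, *Hif1a*, *Hk2*, *Ldhb*, *Slc16a1* and *Car9*, and 7 down-regulated ones, *Pfkl*, *Pfkm*, *Tpi1*, *Ldha*, *Pfkfb3*, *Pdk1* and *Bnip3*. The share of up-regulated members was 12.8%, near the 10.5% of all tested genes, and the share of down-regulated members was 17.9%, against 6.4%. Genotypes did not overlap in 15 members (38.5%), against 25.9% of all tested genes. The median log2 fold change of the members was -0.24 and that of all tested genes was -0.01. Among the glycolytic enzymes 2 were up-regulated and 4 down-regulated of 16 (median -0.25), and among the other hypoxia genes 3 and 3 of 23 (median -0.14). Fold changes are given on the log2(TPM + 1) scale as null minus WT, which understates the changes of genes at a few TPM.

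**Figure D1:**
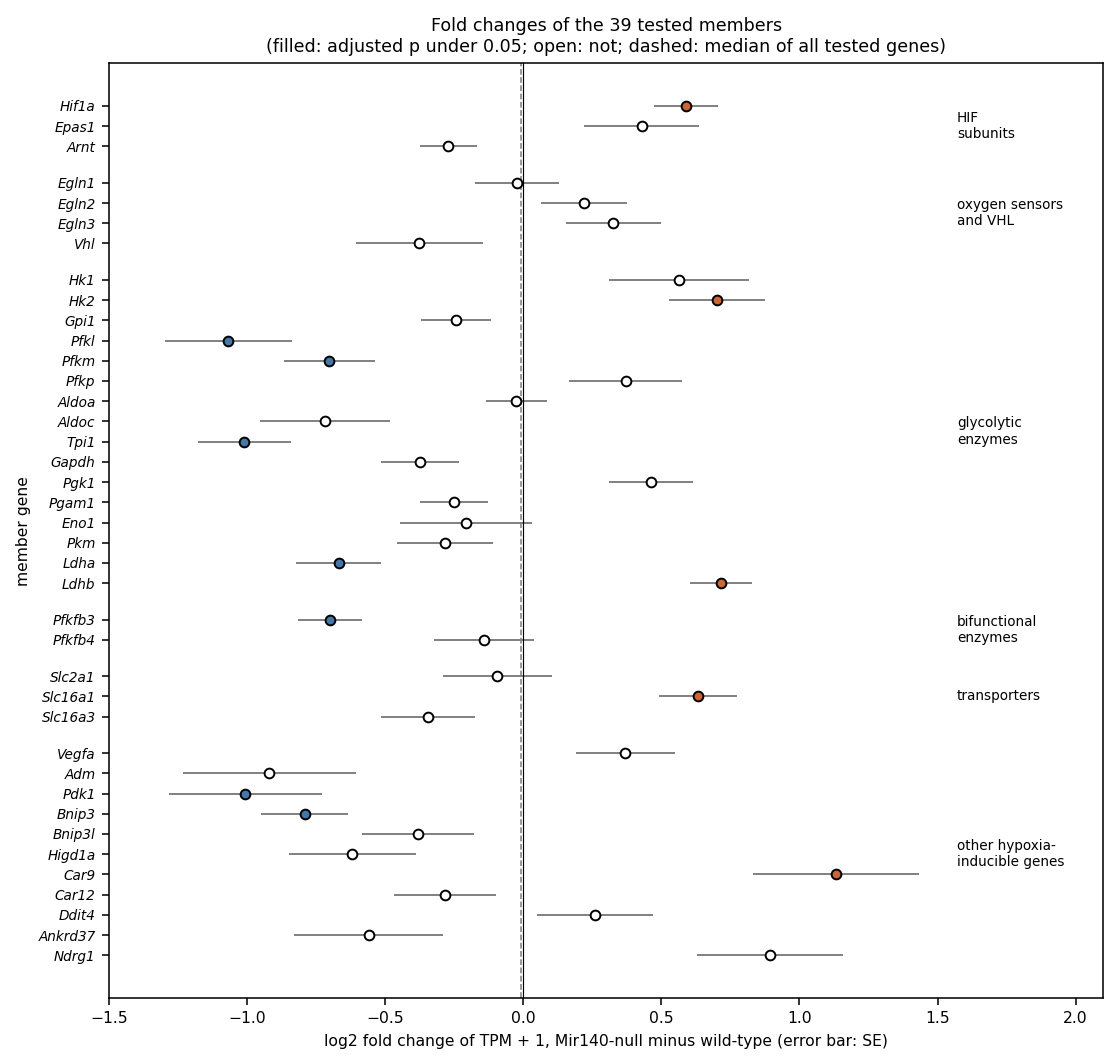
Log2 fold change (x axis, null minus WT on the log2(TPM + 1) scale, bar: SE) of the 39 tested members, grouped by role; filled points passed the test and open points did not. The significant members lie between -1.07 (*Pfkl*) and 1.13 (*Car9*), and the glycolytic enzymes include significant points on either side of 0.

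Features of the libraries that go beyond these genes differed between and within the genotypes. *Mir140* itself had a value above 0 in only 1 library, 8.86 TPM in that labelled null 2, so this row does not check the labels. The 14 chondrocyte markers were all present and summed to 70793 to 87343 TPM in WT and 54092 to 75177 TPM in null libraries, with 2 up-regulated and 4 down-regulated. The 8 fibroblast and perichondrium markers summed to 3875 to 6632 TPM in WT libraries, to 1701 and 1667 TPM in the libraries labelled null 1 and 2, and to 6125 and 4926 TPM in those labelled null 3 and 4. Within the list, null 1 and 2 were the lowest pair for *Col1a1*, *Col1a2*, *Col3a1*, *Postn* and *Dpt*, none of which passed the test, whereas *Col6a3* and *Pdgfra* were up-regulated and *Fap* down-regulated. None of these markers was at 0, and *Col1a1* was at 47.8 and 50.1 TPM in the first pair and at 1326 and 898 TPM in the second. Null 1 and 2 were also below all other libraries in the summed endothelial (9.51 and 6.79 TPM, the others 15.8 to 68.0), osteoblast (4.15 and 3.099, the others 10.3 to 18.1), erythroid (432 and 257, the others 646 to 1854) and myeloid markers (19.2 and 20.2, the others 23.5 to 41.7), and in the number of genes at 0.5 TPM or more (15800 and 16056, the others 16991 to 17950). Muscle markers summed to 71.9 to 107 TPM in WT and 36.3 to 62.7 TPM in null libraries, without overlap, with 1 of 7 tested genes down-regulated. Adipocyte markers summed to at most 1.24 TPM in any library. A list of 10 genes induced by tissue dissociation summed to 7791 to 15364 TPM in WT and 3646 to 5608 TPM in null libraries, with 6 genes down-regulated, and mitochondrially encoded genes took 4.06% to 6.98% and 8.41% to 10.1% of the TPM. The part of these differences in the results below was not tested, and the counts of significant genes are also given without the libraries labelled null 1 and 2. The stress genes, the summed muscle markers and the mitochondrial genes differed in all 4 null libraries, so that their part and that of the genotype cannot be told apart. In bulk RNA, fewer cells of a type and less RNA per cell cannot be told apart.

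**Figure D2:**
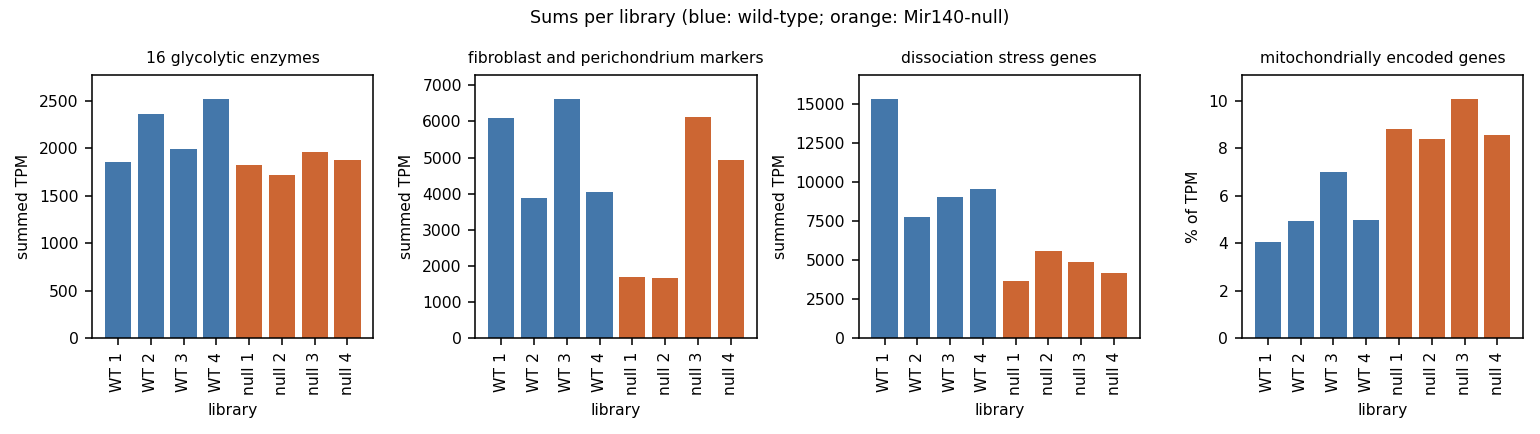
Summed TPM of the 16 glycolytic enzymes, of fibroblast and perichondrium markers and of dissociation stress genes, and the percentage of TPM from mitochondrially encoded genes (y axes), in each library (x axis; no error bars, 1 value per library). Null 1 and 2 are low in the summed fibroblast markers (1701 and 1667 TPM), while all 4 null libraries are below all WT libraries in stress genes and above them in mitochondrial genes.

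The HIF subunits were compared first. *Hif1a* (ENSMUSG00000021109, chr12:73901375-73947530, plus strand) encodes the oxygen-regulated α subunit of HIF-1. It was at 212, 291, 247 and 274 TPM in WT replicates 1 to 4 and at 379, 403, 347 and 405 TPM in the libraries labelled null 1 to 4. The lowest null library was above the highest WT library. *Hif1a* was thus up-regulated 1.5-fold in mean TPM, with a log2 fold change of 0.59 ± 0.12 (SE, 4 libraries per genotype, limma adjusted p = 0.0169). It remained significant in 6 of the 8 fits that left out 1 library. Without WT 3 or the library labelled null 2 the adjusted p rose to 0.0509 and 0.0505, and without the libraries labelled null 1 and 2 it was 0.0965, with a log2 fold change of 0.56.

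*Epas1*, which encodes the HIF-2α subunit, was expressed at a far lower level than *Hif1a*, with 2.11, 4.08, 3.94 and 3.48 TPM in WT and 3.70, 4.39, 6.30 and 5.19 TPM in null libraries. The ranges overlapped, and the log2 fold change of 0.43 ± 0.21 did not pass the test (limma adjusted p = 0.188). *Arnt*, the constitutive partner of the α subunits, was at 34.9, 37.2, 35.5 and 39.5 TPM in WT and at 26.8, 30.2, 30.5 and 34.0 TPM in null libraries. All null values lay below all WT values, but the difference of -0.27 ± 0.10 did not pass (limma adjusted p = 0.105). *Hif3a*, whose product can oppose the other HIFs, had a median of 0.167 TPM in WT and 0.0532 TPM in null libraries.

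None of the 4 genes of oxygen sensing passed the limma test, and 0 had an unadjusted p under 0.05. *Egln1*, *Egln2* and *Egln3* encode the prolyl hydroxylases, and *Vhl* the subunit of the ubiquitin ligase that recognises hydroxylated HIF-α. *Egln1* was at 3.64, 4.46, 4.36 and 4.93 TPM in WT and 4.30, 3.23, 4.99 and 4.62 TPM in null libraries, which is the smallest fold change of the members (-0.02 ± 0.15, 95% interval -0.37 to 0.33). Its sign depended on the scaling between libraries. *Egln2* was at 6.84, 5.75, 6.48 and 6.04 TPM in WT and 10.1, 7.11, 6.80 and 6.28 TPM in null libraries, with a log2 fold change of 0.22 ± 0.16 (limma adjusted p = 0.358). *Egln3*, the predicted target of miR-140-3p.2, was at 1.11, 1.44, 0.962 and 1.69 TPM in WT and at 1.24, 2.51, 1.93 and 1.91 TPM in null libraries. Only the library labelled null 1 was inside the WT range, and the log2 fold change was 0.33 ± 0.17 (limma adjusted p = 0.219). *Vhl* was at 36.8, 27.9, 49.5 and 27.5 TPM in WT and 31.3, 20.99, 33.0 and 21.9 TPM in null libraries, a difference of -0.38 ± 0.23 (limma adjusted p = 0.286).

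Glycolysis begins with hexokinase, which traps glucose in the cell as glucose 6-phosphate. *Hk2*, the hypoxia-inducible isoform, was at 38.1, 60.1, 42.0 and 39.7 TPM in WT and 88.2, 76.9, 65.1 and 62.5 TPM in null libraries. All null libraries were above all WT libraries, and WT 2 lay close to the lowest of them. *Hk2* was up-regulated 1.63-fold in mean TPM (log2 fold change 0.70 ± 0.17, limma adjusted p = 0.032). *Hk1*, the isoform found in most tissues, had a similar fold change of 0.57 ± 0.25 and non-overlapping groups, but WT 1 at 17.2 TPM stood far below the other WT libraries (32.4 to 42.1 TPM), and it did not pass (limma adjusted p = 0.158). *Gpi1*, glucose 6-phosphate isomerase, was at 110 ± 15.5 TPM in WT and 92.3 ± 9.69 TPM in null libraries (SD, n = 4) and did not pass (log2 fold change -0.24 ± 0.13).

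Phosphofructokinase, the step at which glycolysis is mainly controlled, differed by isoform. *Pfkl*, the liver-type subunit, was at 25.8, 18.4, 18.2 and 20.4 TPM in WT and at 6.603, 7.37, 14.0 and 10.6 TPM in null libraries. The groups did not overlap, and the libraries labelled null 1 and 2 were the lowest. *Pfkl* fell by 1.07 ± 0.23 on the log2 scale (limma adjusted p = 0.0213), the largest decrease among the members. *Pfkm*, the muscle-type subunit, was at 13.9, 12.0, 10.8 and 13.4 TPM in WT and 5.41, 7.06, 8.96 and 8.13 TPM in null libraries. Again every null value lay below every WT value, and *Pfkm* fell by 0.70 ± 0.16 (limma adjusted p = 0.0268). *Pfkp*, the platelet-type subunit and the most abundant of the 3 in both genotypes, was at 41.5 ± 11.5 TPM in WT and 52.6 ± 6.62 TPM in null libraries (SD, n = 4), and its fold change of 0.37 ± 0.20 did not pass (limma adjusted p = 0.24).

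The next steps split the six-carbon sugar and interconvert its products. *Aldoa*, the main aldolase, had almost the same mean in both genotypes, 199 ± 26.4 TPM in WT and 195 ± 10.6 TPM in null libraries (SD, n = 4). The difference was -0.03 on the log2 scale with a 95% interval of -0.28 to 0.23, and its sign depended on the scaling. *Aldoc*, a minor aldolase here, was at 37.1 ± 9.51 TPM and 22.2 ± 5.72 TPM and did not pass (-0.72 ± 0.24, limma adjusted p = 0.0703). *Tpi1*, triosephosphate isomerase, was at 194, 167, 161 and 175 TPM in WT and at 68.7, 71.0, 105 and 106 TPM in null libraries. The highest null library was far below the lowest WT library. *Tpi1* fell by 1.01 ± 0.17 (limma adjusted p = 0.0106), and all 8 fits that left out 1 library called it. In the fit without the libraries labelled null 1 and 2 it still passed (log2 fold change -0.72, limma adjusted p = 0.0347).

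The lower part of the pathway, in which energy is recovered, held abundant transcripts with small differences. *Gapdh* (glyceraldehyde 3-phosphate dehydrogenase) was at 402, 571, 490 and 550 TPM in WT and at 419, 318, 407 and 402 TPM in null libraries. The ranges met at the lowest WT library, and the difference of -0.38 ± 0.14 did not pass (limma adjusted p = 0.103). *Pgk1* (phosphoglycerate kinase) was at 79.7 ± 10.5 TPM in WT and 111 ± 20.3 TPM in null libraries with no overlap, and did not pass (0.46 ± 0.15, limma adjusted p = 0.0703). *Eno1* (enolase) was at 306, 308, 257 and 540 TPM in WT and 283, 271, 383 and 249 TPM in null libraries, so that WT 4 alone stood high. *Pkm* (pyruvate kinase) was at 248, 384, 309 and 350 TPM in WT and 206, 284, 256 and 312 TPM in null libraries, and *Pgam1* (phosphoglycerate mutase) at means of 52.5 and 44.0 TPM. None of these 3 passed the test, with log2 fold changes of -0.21, -0.28 and -0.25.

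Lactate dehydrogenase is a tetramer of A and B chains, and tetramers rich in A are known for turning pyruvate into lactate. *Ldha* was at 156, 195, 157 and 171 TPM in WT and at 88.6, 89.6, 128 and 123 TPM in null libraries, and *Ldhb* was at 29.6, 27.2, 28.2 and 32.4 TPM in WT and at 44.7, 49.7, 56.8 and 44.8 TPM in null libraries. Neither gene overlapped between the genotypes, and they moved in opposite directions. *Ldha* fell by 0.67 ± 0.15 (limma adjusted p = 0.0251). *Ldhb* rose by 0.72 ± 0.11 (limma adjusted p = 0.00908), the smallest adjusted p among the members. *Ldhb* was called in all 8 fits that left out 1 library and also without the libraries labelled null 1 and 2 (log2 fold change 0.76, limma adjusted p = 0.0465). *Ldha* was lost without WT 2, 3 or 4 or either of the libraries labelled null 1 and 2, with an adjusted p of at most 0.0656, and had an adjusted p of 0.101 without the latter pair.

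Summed over the 16 enzymes, glycolytic transcripts amounted to 1859, 2355, 1996 and 2521 TPM in WT replicates 1 to 4 and to 1821, 1723, 1955 and 1880 TPM in the libraries labelled null 1 to 4. WT 1 lay inside the null range. The mean was 2183 ± 308 TPM in WT and 1845 ± 98.1 TPM in null libraries (SD, n = 4), so that the null mean was 84.5% of the WT mean. This sum is given as a description and was not tested.

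Several enzymes share reads with near-identical copies in the genome, so their values depend on how reads were divided by Salmon. Transcripts at least 90% identical over at least 200 bases held 43.3% to 50.8% of the joint TPM of *Gapdh* and its 173 copies, 30.5% to 46.8% for *Pgk1*, 20.9% to 35.1% for *Ldhb* (1 copy, *Gm5514*) and 13.5% to 34.5% for *Pgam1*. For *Eno1* the share varied from 0.0159% to 22.1% among libraries, and for *Tpi1* from 0 to 10.9%. Added to its copy, *Ldhb* was at 41.0 ± 6.17 TPM in WT and 67.3 ± 10.5 TPM in null libraries (SD, n = 4), and *Tpi1* with its copy was at 181 ± 15.7 and 91.8 ± 17.9 TPM. The joint values therefore kept the direction of the single genes for both. *Pgk1* with its copies was at 141 ± 24.7 TPM in WT and 170 ± 21.9 TPM in null libraries (SD, n = 4). Its direction held, but the joint values of the genotypes overlapped, unlike those of *Pgk1* alone. *Higd1a*, described below, held less of the joint TPM than its copy *Gm9790*, which took 57.5% to 61.6%.

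The bifunctional enzymes that make and degrade fructose 2,6-bisphosphate, the strongest activator of phosphofructokinase, are encoded here by *Pfkfb3* and *Pfkfb4*. *Pfkfb3* was at 148, 152, 141 and 171 TPM in WT and at 85.3, 113, 89.98 and 88.0 TPM in null libraries. All null libraries lay below all WT libraries, and in contrast to *Pfkl*, *Tpi1* and *Ldha* the libraries labelled null 1 and 2 were not the lowest pair. *Pfkfb3* fell by 0.70 ± 0.12 (limma adjusted p = 0.0106), was called in all 8 fits that left out 1 library, and passed without null 1 and 2 (log2 fold change -0.77, limma adjusted p = 0.032). *Pfkfb4* was at 12.7 ± 2.83 TPM in WT and 11.3 ± 1.70 TPM in null libraries (SD, n = 4), with a log2 fold change of -0.14 ± 0.18.

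*Slc2a1*, which encodes the glucose transporter GLUT1, was the most abundant member, at rank 159 of all identifiers by mean WT TPM. It was at 662, 1187, 888 and 888 TPM in WT and at 851, 1000, 647 and 868 TPM in null libraries. The null values lay almost wholly within the WT range, and the log2 fold change was -0.09 ± 0.20 with a 95% interval of -0.54 to 0.36 (limma adjusted p = 0.768). *Slc16a1* encodes MCT1, a lactate carrier found in most cells, and *Slc16a3* encodes MCT4, a carrier known for exporting lactate from glycolytic cells. *Slc16a1* was at 19.5, 20.2, 18.1 and 19.6 TPM in WT and at 38.5, 32.2, 24.9 and 27.9 TPM in null libraries. The WT libraries were close together, and each null library was above them. *Slc16a1* rose by 0.63 ± 0.14 (limma adjusted p = 0.0233), whereas *Slc16a3*, at 9.35 ± 1.78 TPM in WT and 7.12 ± 1.2 TPM in null libraries (SD, n = 4), did not pass (-0.35 ± 0.17, limma adjusted p = 0.19).

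**Figure D3:**
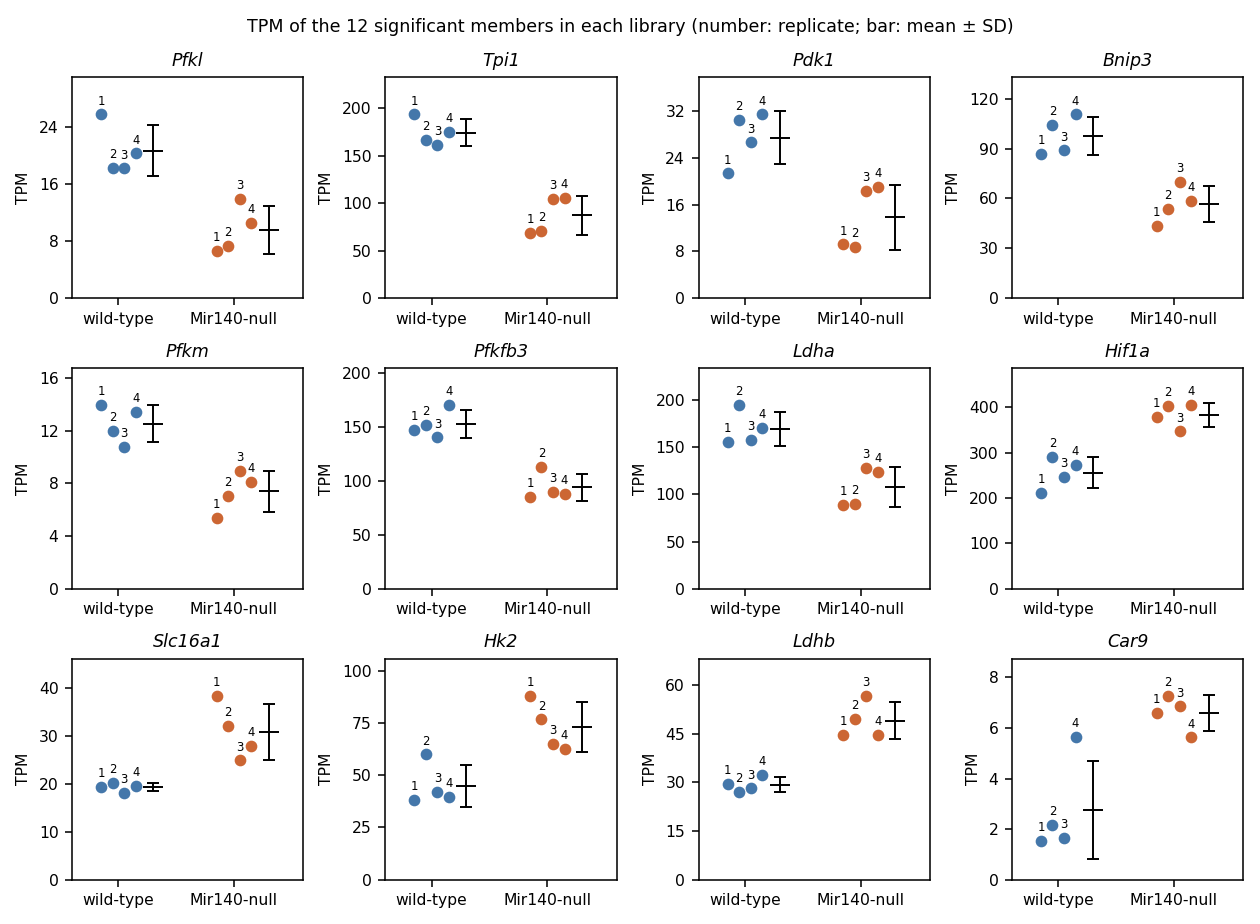
TPM (y axes, from 0) of the 12 significant members in each library, ordered from the most negative to the most positive log2 fold change; numbers are replicates and the bar is the mean ± SD of 4 libraries. The genotypes do not overlap in 11 of the panels, and in that of *Car9* WT 4 (5.66 TPM) lies just above null 4 (5.62 TPM).

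The remaining members are targets of HIF in many cell types. *Pdk1* encodes a kinase that limits the oxidation of pyruvate in the mitochondria by inactivating pyruvate dehydrogenase. It was at 21.4, 30.5, 26.7 and 31.5 TPM in WT and at 9.23, 8.82, 18.4 and 19.0 TPM in null libraries. The libraries labelled null 1 and 2 were lower than null 3 and 4, which in turn were just below the lowest WT library. *Pdk1* fell by 1.01 ± 0.28 (limma adjusted p = 0.0415), but without null 1 and 2 the log2 fold change was -0.52 (limma adjusted p = 0.142). *Bnip3*, a protein of the outer mitochondrial membrane that promotes the removal of mitochondria, was at 86.8, 104, 88.9 and 111 TPM in WT and 43.6, 53.8, 69.9 and 58.5 TPM in null libraries. The groups did not overlap. *Bnip3* fell by 0.79 ± 0.16 (limma adjusted p = 0.0167) and was called in all 8 fits that left out 1 library, and it had an adjusted p of 0.0797 without null 1 and 2. *Bnip3l*, its relative, was at 72.9, 81.0, 77.0 and 85.1 TPM in WT and 43.7, 49.5, 74.9 and 81.3 TPM in null libraries, so that the fall was seen only in the first pair of null libraries, and it did not pass (limma adjusted p = 0.223).

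*Car9* encodes a carbonic anhydrase on the cell surface that keeps the pH stable when acid is exported, and is a widely used marker of hypoxia. It was at 1.53, 2.16, 1.66 and 5.66 TPM in WT and at 6.59, 7.28, 6.85 and 5.62 TPM in null libraries. WT 4 was at the level of the null libraries and the other WT libraries were well below. *Car9* rose by 1.13 ± 0.30 (limma adjusted p = 0.0379), the largest increase among the members, but was called in only 1 of the 8 fits that left out 1 library, that without WT 4. *Car12*, a second cell-surface carbonic anhydrase, was at 4.91 ± 0.258 TPM in WT and at 2.87, 2.99, 5.25 and 4.76 TPM in null libraries and did not pass (-0.28 ± 0.19).

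*Vegfa*, the angiogenic growth factor and predicted target of both arms of miR-140, was at 186, 207, 187 and 230 TPM in WT and at 313, 335, 202 and 219 TPM in null libraries. The libraries labelled null 1 and 2 were above all others and null 3 and 4 were within the WT range. The log2 fold change of 0.37 ± 0.18 did not pass (limma adjusted p = 0.188), and without null 1 and 2 it was 0.06. *Ndrg1*, a gene induced by stress and hypoxia and linked to cell differentiation, was at 245, 492, 462 and 479 TPM in WT and at 564, 684, 819 and 1006 TPM in null libraries. All null libraries were higher than all WT libraries, WT 1 stood far below the other WT libraries, and the difference of 0.89 ± 0.26 had a limma adjusted p of 0.0528. *Ndrg1* passed in 7 of the 9 other ways of fitting all libraries. *Adm*, the vasodilator adrenomedullin, was at 4.35, 8.21, 6.97 and 7.82 TPM in WT and 1.37, 2.76, 5.14 and 3.95 TPM in null libraries, a log2 fold change of -0.92 ± 0.31 that did not pass (limma adjusted p = 0.077).

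*Higd1a*, a mitochondrial protein that promotes survival at low oxygen, was at 255 ± 71.8 TPM in WT and 163 ± 32.6 TPM in null libraries (SD, n = 4) and did not pass (-0.62 ± 0.23, limma adjusted p = 0.0987). *Ankrd37* was low, at means of 2.05 and 1.08 TPM. *Ddit4*, an inhibitor of mTOR signalling, was at 34.4, 25.0, 29.0 and 30.9 TPM in WT and 48.9, 43.0, 26.8 and 28.7 TPM in null libraries, with only the libraries labelled null 1 and 2 above the WT range. Neither of these passed the test (log2 fold changes -0.56 and 0.26).

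In 6 of the 7 down-regulated members, all but *Pfkfb3*, the libraries labelled null 1 and 2 were the lowest pair of the 8. The same held in 5 of 8 fibroblast, 5 of 7 endothelial, 4 of 7 erythroid and 4 of 6 osteoblast markers. It held in 5 of 10 myeloid, 5 of 12 muscle, 1 of 5 adipocyte and 1 of 14 chondrocyte markers. For the stress genes it was 3 of 10. In the 7 members every null library was below every WT library, so their lowest pair could only be null libraries. The marker lists were not chosen in this way, so the counts are not matched. How often null 1 and 2 were the lowest pair among all tested or all down-regulated genes was not determined. Without the libraries labelled null 1 and 2, 3 of the 12 members remained significant, *Tpi1*, *Ldhb* and *Pfkfb3*, and no other member was called. That is 7.69% of the 39 tested members, against 3.30% of all tested genes. Without the library labelled null 2 alone, 4 of the 39 tested members were called, the former 3 and *Bnip3*, against 7.02% of all tested genes. *Hk2* was lost without null 1, null 2, WT 1, WT 3 or WT 4 (limma adjusted p of at most 0.0832), and *Pfkm* without null 2 or any 1 WT library (at most 0.0728). *Pfkl* was lost without null 2, WT 1 or WT 4 (limma adjusted p of at most 0.0582), *Slc16a1* without null 2, WT 1, WT 3 or WT 4 (at most 0.0661), *Pdk1* in all fits but those without null 3 or null 4 (at most 0.1) and *Car9* in all but that without WT 4 (at most 0.0931). The direction of all 12 held in each of these fits.

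**Figure D4:**
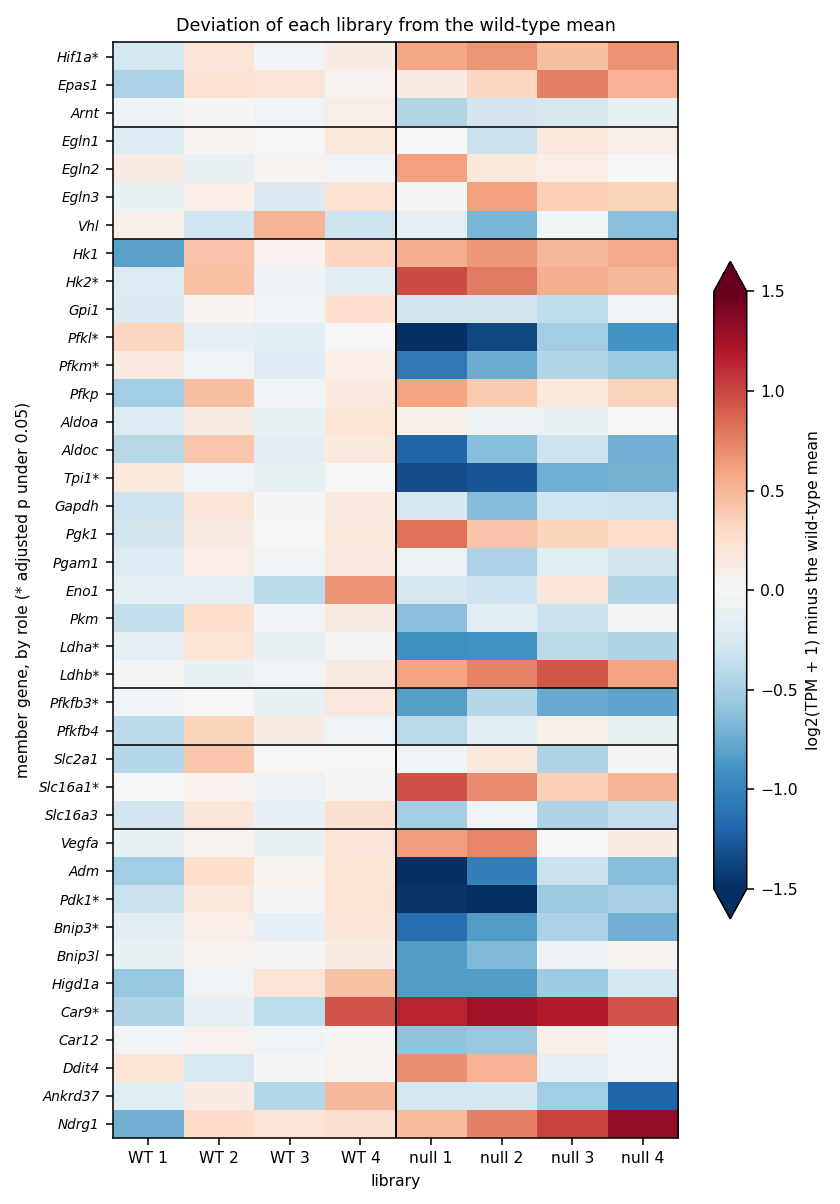
Deviation of log2(TPM + 1) from the WT mean of the same gene (colour; it saturates at the ends of the scale) for the 39 tested members (rows, by role; asterisk: significant) in the 8 libraries (columns). *Hif1a*, *Ldhb* and *Pfkfb3* deviate alike in all 4 null libraries, while *Pdk1*, *Adm*, *Bnip3l* and *Vegfa* deviate most in null 1 and 2.

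The ratio of 2 members was taken within each library on the log2(TPM + 1) scale, and 10 such pairs were compared by an exact permutation test (70 ways to divide the libraries). The smallest two-sided p that these allow is 0.0286, and no pair passed after adjustment over the 10 pairs. In 5 pairs the genotypes did not overlap, and these had the smallest exact permutation p of 0.0286 (0.0571 adjusted). The TPM ratio of *Ldha* to *Ldhb* was 5.25, 7.16, 5.58 and 5.28 in WT and 1.98, 1.80, 2.25 and 2.76 in null libraries. Every null library had less *Ldha* relative to *Ldhb* than every WT library, by 1.39 on the log2 scale of TPM + 1. The ratio of *Pfkl* to *Pfkp* was 0.935, 0.333, 0.474 and 0.457 in WT and 0.108, 0.139, 0.311 and 0.206 in null libraries (log2 difference -1.44), and that of *Pfkm* to *Pfkp* differed likewise (-1.07). The ratio of *Slc16a1* to *Slc16a3* was 1.77 to 2.65 in WT and 3.64 to 6.26 in null libraries (0.98). *Bnip3* relative to *Bnip3l* was 1.16 to 1.30 in WT and 0.720 to 1.09 in null libraries (-0.41). The remaining pairs overlapped, among them *Hk1* to *Hk2* (log2 difference -0.14, exact permutation p = 0.6) and *Hif1a* to *Epas1* (0.16, exact permutation p = 0.429).

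**Figure D5:**
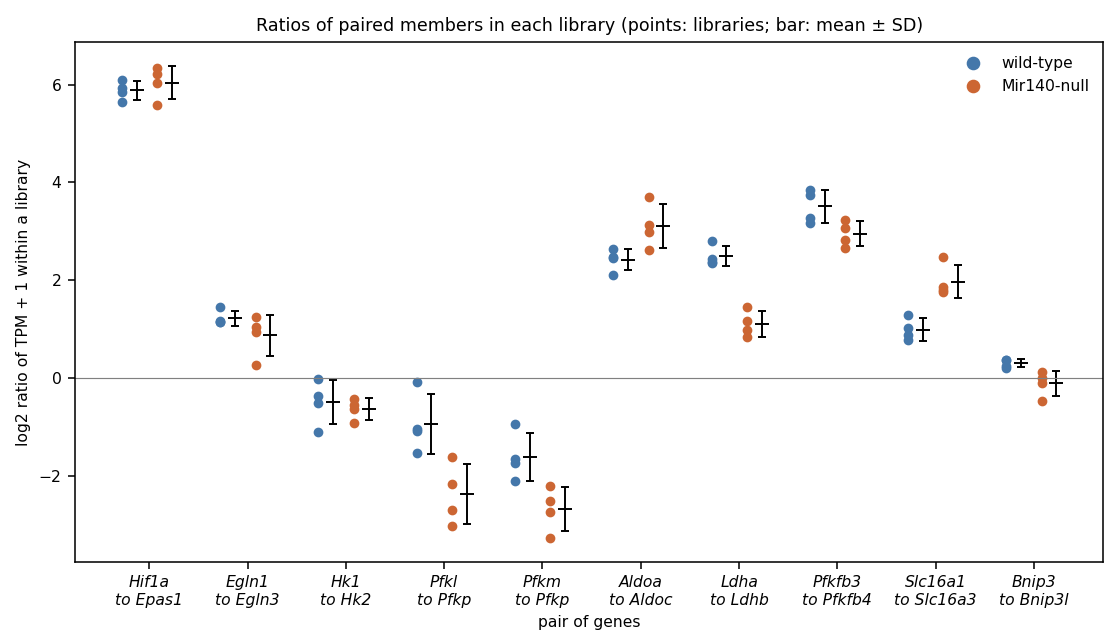
Log2 ratio of TPM + 1 (y axis) of the 10 pairs of members (x axis) in each library; blue points are WT, orange points null, and the bar is the mean ± SD of 4 libraries. *Ldha* to *Ldhb* shows the clearest gap, with WT at a mean of 2.49 and null at 1.1, while *Hif1a* to *Epas1* and *Hk1* to *Hk2* overlap.

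HIF binds DNA at the core ACGTG or GCGTG, and the promoters of the members were searched for these letters on both strands, counting a palindromic overlap once. RefSeq promoters of 300 bases (250 before and 50 after the start, GRCm38.p6) were matched for 37 members, all but *Epas1*, *Bnip3l* and *Ndrg1*. The core was present in 29 of them (78.4%), against 62.0% of the promoters of tested genes and 43.8% of all promoters. It was found in all 5 up-regulated members and in 6 of the 7 down-regulated ones, *Tpi1* being without a match in this window, and in 17 of 24 (70.8%) of those that did not pass. Windows of 2 members that fell and 2 that rose show that the same letters stood in both, with the core in capitals and the strand of the gene.
*Ldha*, down-regulated, chr7:46845744-46845772, plus strand: cggcccagcctaCACGTgggttcccgcac
*Pfkfb3*, down-regulated, chr2:11553973-11554001, minus strand: ctccgcgccgtgACGTGccaagctgtgac
*Slc16a1*, up-regulated, chr3:104638452-104638480, plus strand: gcggcgccgggtCACGTggcgggaagggg
*Car9*, up-regulated, chr4:43506996-43507024, plus strand: ctatttccgatgCACGTacagcccgtcca
The *Ldha* promoter held 5 matches in all, the most of any significant member. The presence of a core is a description, and binding of HIF was not measured.

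Genes of the same pathways that are not members were examined by list, with 97 of 106 tested. Of these 12 (12.4%) were up-regulated and 10 (10.3%) down-regulated, against 10.5% and 6.4% of all tested genes, and 3 and 2 were without the libraries labelled null 1 and 2. Of 17 other glycolysis genes 1 passed (5.88%, below the 16.9% of all tested genes), *Bpgm* (bisphosphoglycerate mutase), which fell by 0.70 ± 0.20 (limma adjusted p = 0.0499). It was called in 1 of the 8 fits that left out 1 library, and without null 1 and 2 its log2 fold change was -0.39 (limma adjusted p = 0.208). Of 10 genes of pyruvate dehydrogenase and its regulators 1 passed (10%), *Dld*, a subunit of that complex, which rose by 0.55 ± 0.12 (limma adjusted p = 0.0241). It was called in 3 of the 8 fits, and had an adjusted p of 0.108 without null 1 and 2. Of 14 other components of the HIF pathway 2 rose (14.3%), *Siah1a*, a ubiquitin ligase acting on prolyl hydroxylases (0.91 ± 0.12, limma adjusted p = 0.00672), and *Rbx1*, a subunit of the VHL ligase (0.67 ± 0.16, limma adjusted p = 0.0285). *Siah1a* was called in all 8 fits and without null 1 and 2 (limma adjusted p = 0.0317), and *Rbx1* in 2 of them and not without this pair (0.128). Without the pair limma called 0 genes of the first and 0 of the second of these lists, with 2 and 3 at an unadjusted p under 0.05.

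Of 38 further hypoxia-inducible genes, 4 rose (10.5%, the same as the share of all tested genes) and 8 fell (21.1%, against 6.4%). Without null 1 and 2, 1 rose and 2 fell. *Plin2*, a coat protein of lipid droplets, fell by 1.34 ± 0.32 (limma adjusted p = 0.0293), was called in 3 of the 8 fits and was at -0.88 without null 1 and 2 (limma adjusted p = 0.165). *Vldlr*, a lipoprotein receptor, rose by 1.53 ± 0.27 (limma adjusted p = 0.0125) and was called in all 8 fits, but not without null 1 and 2 (limma adjusted p = 0.079).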

How the data were processed

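RNA-seq of rib chondrocytes (4 WT and 4 *Mir140*-null mice, grouped by label) was analysed from the processed files. The authors deposited TPM per Ensembl gene, made with Salmon (version and step of summation per gene not given in the sources used here) from single-end reads of stranded poly(A) libraries against mm10. The submitters' processing notes also name FastQC 0.11.7 and DESeq2. TPM carry no counts, so depth is unknown, no counting interval was computed, and the count model with RUVSeq factors of the study was replaced by limma 3.58.1 (R 4.3.3) on log2(TPM + 1), eBayes with trend, two-sided, genotype as the only term, Benjamini-Hochberg adjustment over 17177 genes. Identifiers on several lines were counted once; 99.8% were in GENCODE M21. *Aldoa* has a second identifier, at up to 1.62 TPM, which was not added. Other steps used Python 3.11.15, NumPy 2.4.6, SciPy 1.17.1, pandas 2.3.3 and matplotlib 3.10.9.

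The members and lists were chosen with earlier results of these data known. Values in every library were to be given for the significant members, the HIF subunits, oxygen sensors, predicted targets and 5 most abundant members, and, of the other pathway genes, the 3 largest significant changes of each list were named; 1 of them is not reported here. The labels do not say that replicates are separate litters or preparations, so p-values measure the spread between these libraries. Sites were searched in the longest 3′UTR of GENCODE M21 and promoters in RefSeq; miR-140-5p sites were not analysed here. Near-identical copies were found with blastn. Tested on simulated data, limma recovered 115 of 200 genes changed 2-fold (57.5%) with 6 false calls. The simulation drew independent normal noise for each of 17177 genes and changed only genes well above the minimum level. It held no difference between null 1 and 2 and the other null libraries. These figures are therefore not error rates of the real comparison.

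Alternatives were a pseudocount of 0.1, no filter, a mean of at least 5 TPM, median-ratio scaling, quantile normalization, mitochondrial genes left out of the total, replicate number as a block, 1 factor of unwanted variation (RUVr), sample quality weights and each library left out in turn. Leaving out the libraries labelled null 1 and 2 together was added after seeing the data.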

Additional observations from a re-analysis of the deposited data

Results flagged for a closer look

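Gaps within a group of 4 libraries were taken on the log2(TPM + 1) scale. A library was singled out where its gap to the nearest other library took more of the group's range than Dixon's critical value (95% level). Of 100 groups examined, 4 met it, and chance alone marks about 1 in 20. For *Gapdh*, the library labelled null 2 (318 TPM) stood below the other null libraries (402 to 419 TPM), with a gap of 0.851 of the range. For *Ndrg1*, WT 1 (245 TPM) stood below the other WT libraries (462 to 492 TPM), a gap of 0.909. For the ratio of *Egln1* to *Egln3*, WT 3 stood above the other WT libraries (a TPM ratio of 4.53 against 2.92 to 3.28), a gap of 0.934 on the log2 scale. For the ratio of *Slc16a1* to *Slc16a3*, the library labelled null 1 stood above the other null libraries (6.26 against 3.64 to 4.00), a gap of 0.85.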

How the results depend on the processing

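All 12 significant members kept their call with a pseudocount of 0.1, with median-ratio scaling, without mitochondrial genes and with the RUVr factor; 11 did with a mean of at least 5 TPM or sample quality weights (*Car9* lost), 10 with quantile normalization (*Hk2* and *Slc16a1* lost) and 7 without a filter, where more genes were tested. Calls were also gained: *Ndrg1* in all but a pseudocount of 0.1 and no filter, *Pgk1* without mitochondrial genes and with RUVr, *Aldoc* with quantile normalization and RUVr, *Arnt* and *Pgam1* with the former, and *Vegfa*, *Adm* and *Bnip3l* with the latter. The RUVr factor was taken from the residuals after the genotype was fitted, so it left every fold change as it was. It took up residual spread only, and 26.1% of all tested genes were called with it. Calls kept or gained with RUVr are therefore not independent support. Counts that moved are given as up- and down-regulated. Without a filter they were 977 and 539 of all genes, 3 and 4 members, 1 and 2 glycolytic enzymes, and 5 and 3 other pathway genes. With a mean of at least 5 TPM, 605 genes of all were down-regulated. With the RUVr factor 2016 genes of all were down-regulated, 8 members up-regulated, and 5 and 5 other hypoxia genes were called. Other pathway genes that were up-regulated numbered 6 with median-ratio scaling and 7 with quantile normalization, which also left 1 up-regulated glycolytic enzyme. Without the libraries labelled null 1 and 2 the counts were 357 and 210 of all genes, 1 and 2 members, 1 and 1 glycolytic enzymes, 0 and 1 other hypoxia genes, and 3 and 2 other pathway genes; 9 members had lost their call. Of the other hypoxia genes, 5 were still higher there at an unadjusted limma p under 0.05. The causes were not tested.

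Replicate numbers did not pair the libraries: the correlations of deviations between same-numbered libraries were 0.03, 0.02, 0.07 and -0.01. With the replicate block 671 and 454 genes of all, 3 and 3 members, 1 and 1 glycolytic enzymes, and 5 and 2 other pathway genes were called, and *Hif1a*, *Tpi1*, *Ldhb*, *Pfkfb3* and *Bnip3* kept their call, with *Ndrg1* added.

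With each library left out in turn, 755 to 1551 genes were up-regulated and 337 to 1251 down-regulated, the lowest up-regulated count being that without the library labelled null 2. Counts ranged from 1 to 4 and 3 to 9 for the members, 1 to 2 and 1 to 5 for the glycolytic enzymes, 0 to 2 and 2 to 4 for the other hypoxia genes (limma; 0 up-regulated without WT 3 or the library labelled null 2, with 4 at an unadjusted p under 0.05 in either case), and 4 to 9 and 1 to 9 for the other pathway genes. Medians ranged from -0.32 to -0.18 for the glycolytic enzymes and from -0.27 to -0.03 for the other hypoxia genes, and the glycolytic sum from 80.5% to 89.1% of WT.

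Signs changed only where the difference was small and not significant. *Egln1* was at 0.0041 with median-ratio scaling, 0.047 with quantile normalization, 0.024 without mitochondrial genes and 0.12 without the libraries labelled null 1 and 2, and *Aldoa* at 0.0091 with median-ratio scaling and 0.032 without mitochondrial genes. Without null 1 and 2, *Car12* was at 0.023 and *Ddit4* at -0.093. With 1 library left out, the ranges that crossed 0 were -0.089 to 0.080 for *Egln1*, -0.095 to 0.043 for *Aldoa*, -0.34 to 0.015 for *Eno1*, -0.23 to 0.046 for *Slc2a1* and, for the ratio of *Hk1* to *Hk2*, -0.34 to 0.02. After quantile normalization 7 ratios passed (exact permutation, adjusted p = 0.0408): *Pfkl* to *Pfkp* -1.34, *Pfkm* to *Pfkp* -0.95, *Aldoa* to *Aldoc* 0.70, *Ldha* to *Ldhb* -1.37, *Pfkfb3* to *Pfkfb4* -0.68, *Slc16a1* to *Slc16a3* 0.83 and *Bnip3* to *Bnip3l* -0.42. With 3 libraries against 4 or a paired sign-flip the ratios cannot reach a p under 0.0571 or 0.125. TPM hold no counts, so the depth behind members at a few TPM (*Egln3*, *Car9*, *Ankrd37*) is unknown.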

Other observations

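Beside glycolysis, glucose 6-phosphate can enter glycogen or the pentose phosphate pathway, and 18 genes of these routes were tested. Of them 5 rose and 1 fell (33.3%, against 16.9% of all tested genes), with a median log2 fold change of 0.28; without the libraries labelled null 1 and 2, 1 rose and 0 fell by the limma test (7 had an unadjusted p under 0.05). *Pgd*, the second dehydrogenase of the pentose phosphate pathway, was at 10.4, 12.1, 10.8 and 12.7 TPM in WT and at 38.5, 28.0, 22.4 and 25.1 TPM in null libraries. Every null library was far above every WT library, and *Pgd* rose by 1.21 ± 0.17 (limma adjusted p = 0.00729). It was called in all 8 fits that left out 1 library and without the libraries labelled null 1 and 2 (limma adjusted p = 0.0308). *Gys1*, glycogen synthase, was at 5.005, 4.77, 5.80 and 5.44 TPM in WT and 14.1, 11.2, 6.73 and 9.55 TPM in null libraries, and rose by 0.83 ± 0.20 (limma adjusted p = 0.0309). *Pygl*, a glycogen phosphorylase, was at 12.2, 10.6, 16.3 and 12.3 TPM in WT and 6.04, 7.19, 8.64 and 7.71 TPM in null libraries, and fell by 0.72 ± 0.16 (limma adjusted p = 0.0238). Without the libraries labelled null 1 and 2, neither of the latter passed (limma adjusted p = 0.128 and 0.126), with *Gys1* at 0.53, and they were called in 1 and 3 of the 8 fits. *Rpia*, *Tkt* and *Ugp2* rose by 0.49, 0.41 and 0.56, were called in 2, 1 and 2 of the 8 fits, and were lost without null 1 and 2 (limma adjusted p = 0.138, 0.226 and 0.227).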
